A study of Mus musculus with 7 samples.

Results

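The genes described here are 10 transcription factors and regulators of the ATF4-CHOP stress response, chosen by name as rows of the expression table: Atf4, Ddit3, Atf3, Atf5, Cebpb, Cebpg, Trib3, Nupr1, Chac1 and Ppp1r15a. They were chosen with earlier results of these data known. All 10 had a row of their own among 13376, and all were among the 11500 rows whose mean reached 1 FPKM, the level set for testing. FPKM counts sequenced fragments per length of transcript, relative to all fragments mapped in the library. The libraries came from C2C12, a line of mouse myoblasts, sampled while proliferating. There were 2 libraries labelled lnc-31 siRNA, meant to knock down the long noncoding RNA lnc-31, and 2 labelled scrambled siRNA as controls. The labels give neither siRNA dose nor time, and all libraries share the 1 cell line. A second experiment recovered RNA from C2C12 with biotinylated antisense probes to lnc-31 (labelled ODD) or to lacZ, with 1 library each.

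The ATF4-CHOP pathway is the nuclear arm of the integrated stress response. Kinases that sense unfolded protein, amino acid shortage, viral RNA or low haem phosphorylate the initiation factor eIF2, which slows general translation while the Atf4 message is translated more. ATF4 then dimerises with C/EBP proteins and switches on genes of amino acid supply together with CHOP, the product of Ddit3, and with feedback regulators such as TRIB3 and GADD34. Only RNA was measured here, so neither eIF2 phosphorylation nor any protein was observed.

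The row that names Mir31, whose host transcript lies at the lnc-31 locus, had 12.1 and 14.1 FPKM with lnc-31 siRNA, against 13.4 and 15.6 FPKM with scrambled siRNA. Its log2 fold change of -0.14 did not pass the test (limma, adjusted p = 0.38), so a fall of the targeted RNA was not shown by this row, and each direction below is that of the libraries labelled lnc-31 siRNA. Library lnc-31 siRNA 1 stood apart on the first principal component (41.4% of the variance), at 39.1, against -10.4 for lnc-31 siRNA 2 and -12.4 and -16.3 for the scrambled siRNA libraries. The row mt-Nd2 had 2876 to 3401 FPKM in 3 of the libraries and far more in scrambled siRNA 2. Read depth is unknown from the table. The myoblast markers Myod1, Myf5, Des, Cdh15, Itga7, Chrna1 and Ncam1 were present at 21.99 to 209 FPKM, while no row was found for Pax7.

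Of the 10 genes, 8 rose with lnc-31 siRNA and 0 fell, where 5.64% of all tested rows were called higher and 6.78% lower (limma on log2(FPKM + 1), Benjamini-Hochberg adjusted p under 0.05). Cebpb and Cebpg did not pass. The log2 fold changes ran from 0.19 for Cebpg to 1.22 for Trib3, with a median of 0.75, against a median of -0.0067 over all tested rows. Both lnc-31 siRNA libraries lay above both scrambled siRNA libraries in 10 of 10 genes, as they did in 28.5% of tested rows. The sum of the 10 genes was 863 and 893.5 FPKM with lnc-31 siRNA, against 573 and 600.2 FPKM with scrambled siRNA. In bulk RNA, more cells with the response and more RNA per cell cannot be told apart.

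**Figure D1:**
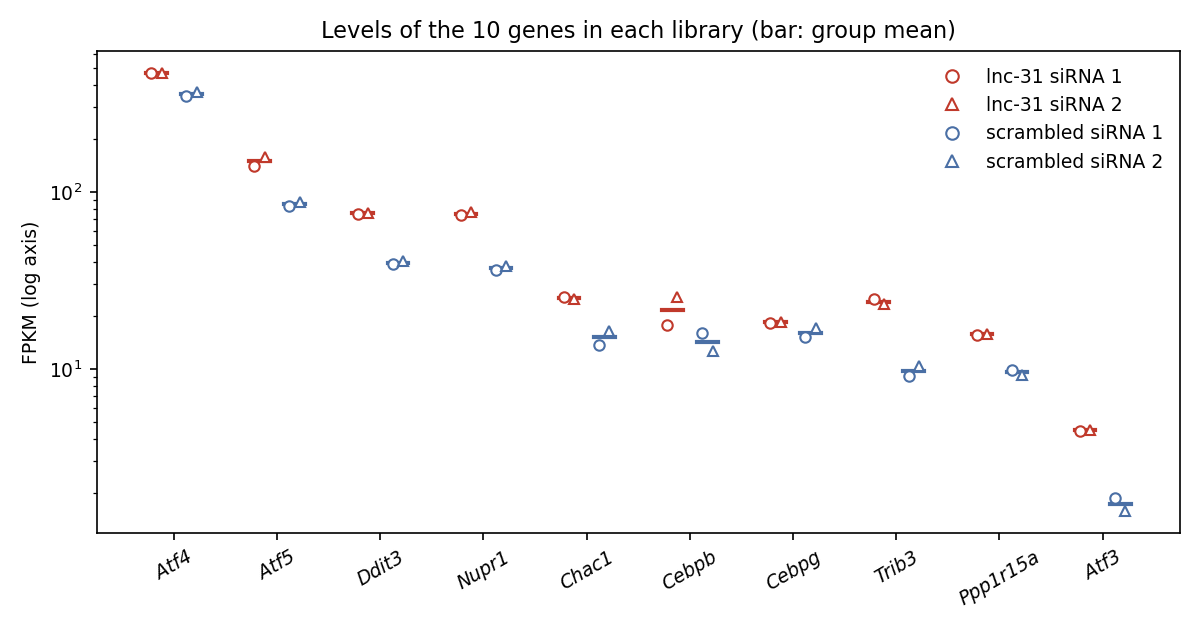
FPKM of each of the 10 genes (log axis), ordered by the mean over 4 libraries, with lnc-31 siRNA libraries in red left of scrambled siRNA libraries in blue, circles for replicate 1, triangles for replicate 2 and a bar for the group mean (n = 2 each). In each gene both red points lie above both blue points, most narrowly in Cebpb and Cebpg.

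The DNA before the start of 5 of the genes is shown because it holds letters of elements through which the response is known to act. All 10 genes matched the RefSeq promoter table (GRCm38.p6), with 11 windows of 250 bases before and 50 after a start, since Atf5 has more than 1. Both strands were searched for TGATGNAA, the core of the element bound by C/EBP-ATF dimers, for TGACGTCA, the element bound by CREB and ATF proteins, and for the endoplasmic reticulum stress element, read as CCAAT, 9 bases of any kind and CCACG. The first was found in 4 of the 11 windows, those of Atf3, Chac1, Nupr1 and Trib3, and in 3.97% of all 32851 windows. Counted by gene, it was in 4 of the 10 and in 1219 of all 27025. TGACGTCA was found in Ppp1r15a and in 1.79% of all windows. The third was in none of the 11 windows and in 0.119% of all. No match overlapped another motif. Capitals mark the matches below, each sequence being the 250 bases before the start, on the strand of the gene, 5′ to 3′, at chr1:191183334-191183583 (minus strand) for Atf3, chr7:126625471-126625720 (minus) for Nupr1, chr2:119350992-119351241 (plus) for Chac1 and chr7:45526269-45526518 (minus) for Ppp1r15a. Trib3 is shown as 28 bases at chr2:152344029-152344056 (minus), since its match lies past the start.
Atf3: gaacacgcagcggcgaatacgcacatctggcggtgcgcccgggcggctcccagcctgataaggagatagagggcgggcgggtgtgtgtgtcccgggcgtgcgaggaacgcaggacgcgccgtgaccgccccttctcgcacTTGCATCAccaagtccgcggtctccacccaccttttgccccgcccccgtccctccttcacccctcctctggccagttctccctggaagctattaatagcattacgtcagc
Nupr1: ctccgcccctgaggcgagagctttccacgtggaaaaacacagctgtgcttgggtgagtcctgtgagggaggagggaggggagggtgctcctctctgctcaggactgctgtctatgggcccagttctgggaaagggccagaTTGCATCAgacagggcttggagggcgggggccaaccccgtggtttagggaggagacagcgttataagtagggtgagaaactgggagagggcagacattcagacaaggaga
Chac1: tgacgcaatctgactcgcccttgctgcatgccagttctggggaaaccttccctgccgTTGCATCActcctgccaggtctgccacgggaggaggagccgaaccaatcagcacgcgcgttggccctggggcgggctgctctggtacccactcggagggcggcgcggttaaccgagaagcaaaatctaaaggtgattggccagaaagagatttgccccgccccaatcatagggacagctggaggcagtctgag
Ppp1r15a: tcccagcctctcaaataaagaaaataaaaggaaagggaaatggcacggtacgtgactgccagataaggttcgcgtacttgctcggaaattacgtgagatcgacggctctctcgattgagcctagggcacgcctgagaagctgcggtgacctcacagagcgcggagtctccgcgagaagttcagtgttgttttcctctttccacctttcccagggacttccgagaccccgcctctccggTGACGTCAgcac
Trib3: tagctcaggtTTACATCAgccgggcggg
Atf3 and Nupr1 hold the same letters TTGCATCA at the same place, positions -110 to -103, where -1 is the base before the start, and Chac1 holds them at -193 to -186. These letters, the reverse complement of TGATGCAA, were in 0.895% of all windows, a count made after the matches were seen. The Trib3 match reads TTACATCA at positions 15 to 22, counted from 1 at the start, and the Ppp1r15a match lies at -12 to -5. Ddit3, Atf4, Atf5, Cebpb and Cebpg hold none of the 3 motifs in these windows, which says only that these letters are not there. Among 36 genes of a list of ATF4 and CHOP targets with a window, 8 held TGATGNAA, in 8 of their 50 windows: Asns, Fgf21, Herpud1, Pck2, Pycr1, Slc1a4, Slc7a11 and Vldlr.

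Atf4 encodes the central factor of the pathway, a basic leucine zipper (bZIP) protein. It was the most abundant of the 10 messages, at 468 and 471 FPKM with lnc-31 siRNA, against 349 and 367 FPKM with scrambled siRNA. The lnc-31 siRNA libraries lay close together and above both controls. Its log2 fold change was 0.39 (SE 0.047, 95% interval 0.28 to 0.51, adjusted p = 0.010). The call was lost when scrambled siRNA 1 (0.36, adjusted p = 0.069) or scrambled siRNA 2 (0.43, adjusted p = 0.054) was left out. Atf4 lies on chromosome 15 from 80255184 to 80257545.

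Ddit3 encodes CHOP, a C/EBP-family factor known for driving growth arrest and cell death under lasting stress, and lies on chromosome 10 from 127290793 to 127296291. Its message was at 75.3 and 75.8 FPKM with lnc-31 siRNA, against 39.1 and 40.6 FPKM with scrambled siRNA. The ranges of the groups were far apart compared with the gaps within them. The log2 fold change of 0.90 had the smallest standard error of the 10 (0.041, 95% interval 0.80 to 1.01, adjusted p = 0.0022). With any 1 library left out it stayed between 0.88 and 0.93. The gene span overlaps those of Mbd6 and Mars1 at its ends, so a share of its reads could be theirs.

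Atf3 encodes a bZIP factor of the ATF/CREB family that is low in unstressed cells and induced by many stresses. It was the lowest of the 10 messages, at 4.44 and 4.54 FPKM with lnc-31 siRNA, against 1.87 and 1.57 FPKM with scrambled siRNA. The ratio of the group means was 2.61, the largest of the 10 genes. On the log2(FPKM + 1) scale, which understates low genes, the difference was 1.02 (SE 0.089, adjusted p = 0.0057), and with a pseudocount of 0.1 it was 1.34. Atf3 lies on chromosome 1 from 191170296 to 191183333.

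Atf5 encodes a relative of ATF4 whose translation also depends on eIF2 phosphorylation. It was second in abundance, at 139 and 158 FPKM with lnc-31 siRNA, against 83.7 and 87.3 FPKM with scrambled siRNA. The lnc-31 siRNA libraries differed by more than the controls did, yet the lower of them was well above both. The log2 fold change was 0.79 (SE 0.067, adjusted p = 0.0056). Its span on chromosome 7, from 44812256 to 44816658, overlaps those of Nup62 and Il4i1b.

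Cebpb and Cebpg encode C/EBP-beta and C/EBP-gamma, bZIP proteins with which ATF4 and CHOP can dimerise. Cebpb was at 17.8 and 25.3 FPKM with lnc-31 siRNA, against 15.9 and 12.6 FPKM with scrambled siRNA. It was the least reproducible of the 10 genes, with a standard error of 0.18 around a log2 fold change of 0.55 (adjusted p = 0.10). Its difference depended on which libraries were kept. Leaving out lnc-31 siRNA 2 gave 0.31 (adjusted p = 0.24) and leaving out scrambled siRNA 2 gave 0.40 (0.32), while without lnc-31 siRNA 1 it was 0.79 and passed the test (adjusted p = 0.043). Cebpg was at 18.3 and 18.5 FPKM with lnc-31 siRNA, against 15.2 and 16.9 FPKM with scrambled siRNA. Its log2 fold change of 0.19 was the smallest of the 10 (95% interval 0.03 to 0.35, adjusted p = 0.12), and it was 0.11 with scrambled siRNA 1 left out (adjusted p = 0.34) and 0.26 with scrambled siRNA 2 left out (0.10). Cebpg overlaps the gene Gm45095.

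Trib3 encodes a pseudokinase that binds ATF4 and CHOP and restrains them, and is also known as an inhibitor of AKT. It had 24.7 and 23.2 FPKM with lnc-31 siRNA, against 9.06 and 10.4 FPKM with scrambled siRNA. Both treated libraries were more than double either control. The log2 fold change of 1.22 was the highest of the 10 genes and ranked 16 among the 11500 tested rows (SE 0.074, 95% interval 1.04 to 1.41, adjusted p = 0.0036). Trib3 lies on chromosome 2 from 152337425 to 152344060.

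Nupr1 encodes a small chromatin-associated protein induced by stress. It had 74.2 and 76.7 FPKM with lnc-31 siRNA, against 36.0 and 38.1 FPKM with scrambled siRNA. The groups lay as far apart as those of Ddit3, at nearly the same levels. The log2 fold change was 1.01 (SE 0.047, adjusted p = 0.0022). Nupr1 lies on chromosome 7 from 126623246 to 126625470, within the span of the long noncoding RNA Gm39087.

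Chac1 encodes a gamma-glutamylcyclotransferase that breaks down glutathione. It had 25.5 and 24.97 FPKM with lnc-31 siRNA, against 13.6 and 16.5 FPKM with scrambled siRNA. The spread was among the controls, and both treated libraries were above them. The log2 fold change was 0.72 (SE 0.089, adjusted p = 0.011), and it moved between 0.59 without scrambled siRNA 1 and 0.84 without scrambled siRNA 2. Chac1 lies on chromosome 2 from 119351242 to 119354326.

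Ppp1r15a encodes GADD34, which brings protein phosphatase 1 to eIF2 and so reverses the phosphorylation that starts the response. It had 15.6 and 15.7 FPKM with lnc-31 siRNA, against 9.80 and 9.29 FPKM with scrambled siRNA. The treated libraries differed by less than the controls. The log2 fold change was 0.66 (SE 0.053, adjusted p = 0.0056). Its constitutive relative Ppp1r15b, also a partner of the phosphatase, differed by -0.17 on the log2 scale, which did not pass (adjusted p = 0.085; chosen after its value was seen). The ratio of Ppp1r15a to Ppp1r15b in FPKM was 0.476 and 0.459 with lnc-31 siRNA, against 0.268 and 0.239 with scrambled siRNA. Ppp1r15a, on chromosome 7 from 45522917 to 45526268, overlaps the end of Tulp2.

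**Figure D2:**
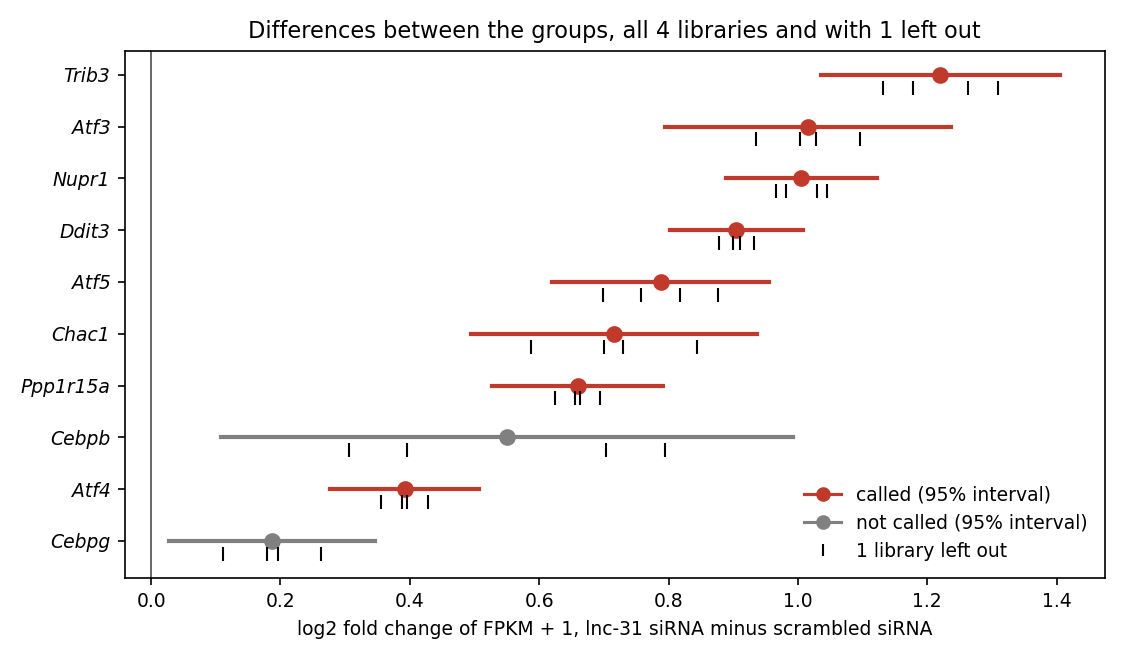
Log2 fold change of FPKM + 1, lnc-31 siRNA minus scrambled siRNA, for each gene with its 95% interval (red called, grey not called), and below it the values with each of the 4 libraries left out (black ticks). Trib3 is highest at 1.22 and Cebpg lowest at 0.19, and the interval of Cebpb is the widest.

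Taking libraries away lowered the number of calls over all rows more than among the 10 genes. Without lnc-31 siRNA 1, 9 of the 10 were called higher, where 2.31% of tested rows were. Without lnc-31 siRNA 2 the number was 8, where 1.5% of rows were called higher. It was 7 without scrambled siRNA 1, where 1.15% were, and 7 without scrambled siRNA 2, where 1.42% were. Trib3, Nupr1, Ddit3, Atf3, Atf5, Chac1 and Ppp1r15a were called in each of these 4 fits. With a group of 1 library, the fit assumes that it varies like the other group. The 10 genes were chosen with earlier results of these data known, and these fits reuse the same libraries. Their calls here are therefore not independent support.

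**Figure D3:**
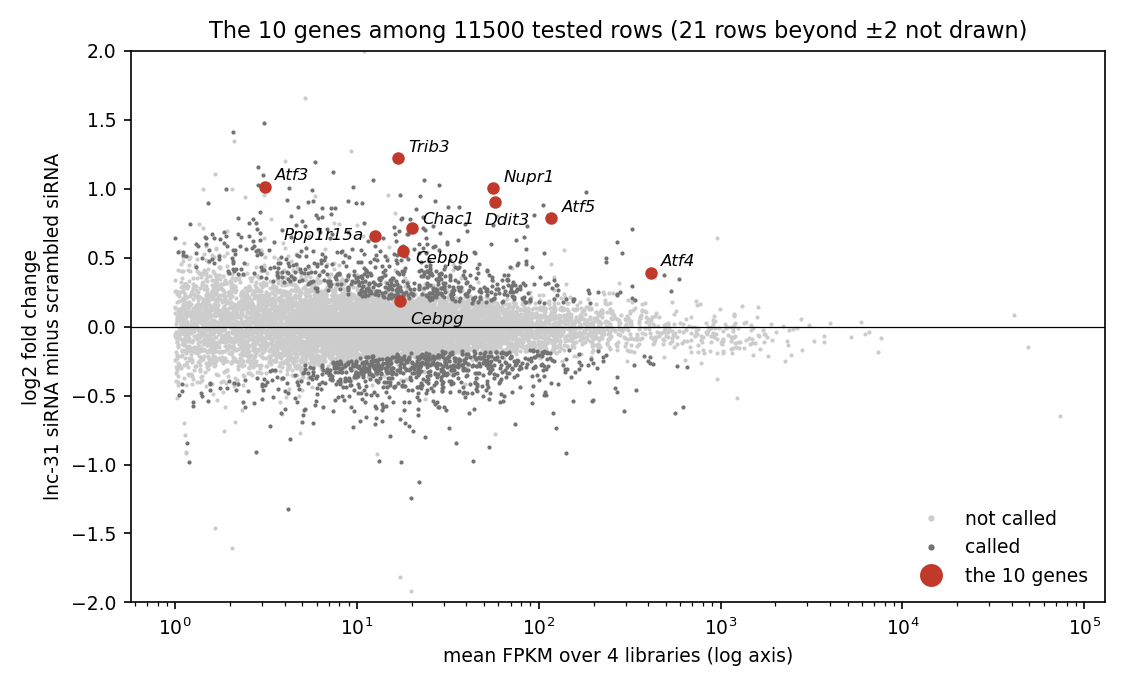
Log2 fold change, lnc-31 siRNA minus scrambled siRNA, against mean FPKM over 4 libraries (log axis) for the tested rows, with called rows in dark grey and the 10 genes in red. The 21 rows beyond 2 on the log2 scale are not drawn. Atf4 lies far to the right, and Trib3, Atf3 and Nupr1 are at or above 1.

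FPKM is per length, so levels can be set beside each other. With lnc-31 siRNA the order of mean FPKM was Atf4, Atf5, Ddit3, Nupr1, Chac1, Trib3, Cebpb, Cebpg, Ppp1r15a and Atf3. Ddit3 and Nupr1 did not differ beyond their spread there, nor did Cebpb from Chac1, Trib3 or Cebpg. With scrambled siRNA, Cebpg, Chac1 and Cebpb overlapped in level, as did Trib3 and Ppp1r15a. The message of CHOP stood higher relative to that of ATF4. The ratio of Ddit3 to Atf4 in FPKM was 0.161 in both lnc-31 siRNA libraries, against 0.112 and 0.111 with scrambled siRNA. The ratio of Trib3 to Ddit3 was 0.328 and 0.306 with lnc-31 siRNA, against 0.232 and 0.255 with scrambled siRNA. The ratio of Cebpb to Cebpg overlapped between the groups, at 0.973 and 1.37 with lnc-31 siRNA and 1.05 and 0.747 with scrambled siRNA. These ratios were not tested.

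Most tested targets of ATF4 and CHOP outside the 10 genes moved with them. Of 38 tested, 26 rose and 1 fell, where 5.64% of all tested rows were called higher and 6.78% lower. The median log2 fold change of the targets was 0.41. This list too was chosen with earlier results of these data known, so its calls are not independent support. Among the 4 with the smallest p, Slc6a9, a glycine transporter, had 26.0 and 24.2 FPKM with lnc-31 siRNA, against 14.9 and 13.5 FPKM with scrambled siRNA (log2 fold change 0.78, adjusted p = 0.0056). Slc7a11, the cystine transporter (0.73), Slc1a4, a transporter of neutral amino acids (0.60), and Aldh1l2, a mitochondrial folate enzyme (0.58), rose as well. The gene that fell was Ero1l, an oxidase of the endoplasmic reticulum, with 12.2 and 12.3 FPKM with lnc-31 siRNA, against 17.5 and 18.3 FPKM with scrambled siRNA (log2 fold change -0.51, adjusted p = 0.0077). Psat1 and Phgdh, enzymes of serine synthesis, had log2 fold changes of 0.01 and 0.08 and did not pass (adjusted p = 0.89 and 0.28). Ero1l, Psat1 and Phgdh were singled out after their values were seen. With any 1 library left out, the log2 fold change stayed between 0.72 and 0.85 for Slc6a9 and between 0.68 and 0.77 for Slc7a11. It stayed between 0.57 and 0.64 for Slc1a4 and between 0.57 and 0.59 for Aldh1l2. Fewer targets were called higher in these fits, and fewer of all tested rows were called too.

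In the IRE1 and ATF6 arms, which answer to unfolded protein, 5 of 23 tested genes rose and 2 fell (median 0.12). Over all tested rows, 5.64% were called higher and 6.78% lower. Xbp1, the message spliced by IRE1, rose by 0.34 on the log2 scale (adjusted p = 0.025), the chaperone Hyou1 by 0.29 (0.015) and Derl1, of ER-associated degradation, by 0.26 (0.028), while the disulfide reductase Dnajc10 fell by 0.37 on the log2 scale (adjusted p = 0.012). Hspa5, which encodes the chaperone BiP, had 0.14 and did not pass (adjusted p = 0.10). The chaperone Hsp90b1 fell by 0.22 on the log2 scale (limma, adjusted p = 0.033). Both were named after their values were seen. Few or none of this list were called higher with 1 library left out, and fewer of all tested rows were called too. Quantile normalization called 10 of the list higher and median of ratios scaling 11. These scalings called 950 and 922 of all 11500 tested rows higher, against 649 in the main fit. With a constant prior variance 3 of the list rose and 1 fell, where 510 of all tested rows rose and 570 fell.

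Upstream, 1 of 16 tested genes of the eIF2 kinases and their machinery rose and 1 fell (median -0.06). These counts are near the shares of all tested rows called, 5.64% higher and 6.78% lower. Eif2s3x, a subunit of eIF2, fell by 0.36 on the log2 scale (adjusted p = 0.0080), and Impact, an inhibitor of the kinase GCN2, rose by 0.23 (adjusted p = 0.029). Impact lost its call with any 1 library left out (adjusted p = 0.091 to 0.13), and Eif2s3x lost its own without scrambled siRNA 1 (0.056) or scrambled siRNA 2 (0.057). Neither Eif2ak3, the kinase PERK (log2 fold change -0.05, 95% interval -0.22 to 0.11, adjusted p = 0.63), nor Eif2ak4, the kinase GCN2 (0.0037, 95% interval -0.21 to 0.22, adjusted p = 0.98), passed. Gcn1l1, an activator of GCN2, and Eif2ak2, the kinase PKR, had -0.21 and -0.19 and did not pass (adjusted p = 0.071 and 0.092).

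Relatives of the 10 genes numbered 2 higher and 2 lower of 15 tested (median -0.03), where 5.64% of all tested rows were called higher and 6.78% lower. Trib1, a tribbles pseudokinase like Trib3, moved the other way, with 7.47 and 7.84 FPKM with lnc-31 siRNA, against 10.5 and 10.7 FPKM with scrambled siRNA (log2 fold change -0.42, adjusted p = 0.014). Without lnc-31 siRNA 1 or either control library the Trib1 call was lost (adjusted p = 0.057, 0.067 and 0.074). Cebpd rose by 0.49, at only 1.16 to 2.33 FPKM, near the level set for testing. Atf6 rose by 0.21 and Atf2 fell by 0.22. Each of these lost its call with any 1 library left out. There the log2 fold change was 0.41 to 0.57 for Cebpd, 0.19 to 0.23 for Atf6 and -0.26 to -0.19 for Atf2. With a constant prior variance Atf6 (limma, adjusted p = 0.062) and Atf2 (0.066) also lost their calls. Atf6 lost its call with no filter on low values as well (limma, adjusted p = 0.055). Of 16 partner and control factors of the bZIP proteins, 2 rose and 1 fell (median -0.0068), beside the same shares of all tested rows. On the log2 scale Jund differed by 0.51 (adjusted p = 0.040), Maff by 0.28 (0.043) and Myc by -0.33 (0.018), while Jun had 0.12 and did not pass (adjusted p = 0.11). Jund was called in 1 of the 4 fits with a library left out, and Maff and Myc in none. Jund and Maff also lost their calls with no filter on low values (adjusted p = 0.051 and 0.054) and with a constant prior variance (0.064 and 0.057).

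**Figure D4:**
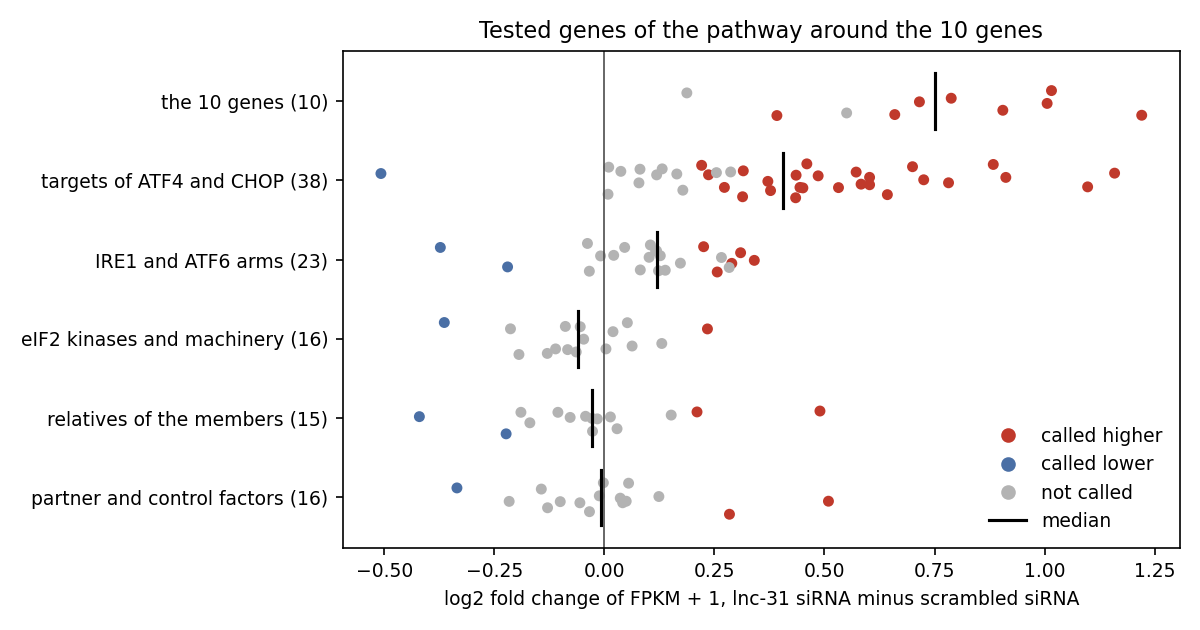
Log2 fold change, lnc-31 siRNA minus scrambled siRNA, of each tested gene in the 10 genes and in 5 lists around them (numbers in brackets, vertical line at the median; red called higher, blue called lower, grey not called). The medians run from 0.75 in the 10 genes and 0.41 in the targets to -0.06 in the eIF2 list.

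By distance between mean-centred log2(FPKM + 1) profiles over the 4 libraries, among 8945 rows averaging at least 5 FPKM, the row closest to Ddit3 was Gadd45a, a growth arrest gene (distance 0.037). Myh3, the embryonic myosin heavy chain, was next (0.051), before Prr9 (0.064), Gm20412 (0.080) and 4833427G06Rik (0.084). Closest to Trib3 were Mb, which encodes myoglobin (0.11), 1810011O10Rik (0.18), Gm7325 (0.22), the myosin light chain Myl1 (0.25) and periostin, Postn (0.26). With 2 libraries a group, such likeness says little more than a similar fold change and spread.

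Most markers of muscle moved with the 10 genes. The share of all tested rows called higher was 5.64%, and lower 6.78%. Of the 7 tested myoblast markers 5 rose (Chrna1, Myod1, Ncam1, Cdh15 and Des) and 0 fell, with a median log2 fold change of 0.25. The 7 summed to 506 and 514 FPKM with lnc-31 siRNA, against 426 and 430.3 FPKM with scrambled siRNA. Itga7 had 0.13 and did not pass (limma, adjusted p = 0.14). Myf5 went the other way, with 35.2 and 35.4 FPKM with lnc-31 siRNA, against 38.6 and 37.5 FPKM with scrambled siRNA. At -0.10 on the log2 scale, Myf5 did not pass (limma, adjusted p = 0.16). All 6 tested differentiation markers (Myog, Myh3, Tnnt2, Ckm, Tmem8c and Actc1) rose, and their summed level was 323 and 331 FPKM with lnc-31 siRNA, against 187.5 and 218 FPKM with scrambled siRNA. Of 7 fibroblast markers, 5 had a row and 4 were tested, of which Col1a1, Col3a1 and Dcn rose, with sums of 1169 and 1135 FPKM with lnc-31 siRNA, against 908 and 939 FPKM with scrambled siRNA. None of 2 tested osteoblast markers (Sp7 and Runx2) and 1 tested blood marker (Cd68) passed in limma, with adjusted p = 0.14, 0.50 and 0.19 and 1 of the 3 (Sp7) at an unadjusted p under 0.05. No row was found for any of the 5 adipocyte markers looked up. The part of these shifts in the levels of the 10 genes was not tested.

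In the pull-down, 0 of 596 peaks with lnc-31 probes and 0 of 476 peaks with lacZ probes overlapped any of the 10 gene bodies by 1 base or more. The count stayed at 0 with each gene extended by 1000 bases on both sides. Among 10868 tested genes with a RefSeq span, 1.98% held a peak with lnc-31 probes and 1.89% with lacZ probes, so a count of 0 among 10 genes is near that background and says nothing particular about them. With 1 library per probe set, this has no replicate check.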

How the data were processed

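Knockdown values are FPKM deposited by the authors. The submitters' processing notes name mm10 and, in no given order, TopHat2, Bowtie2, BWA, Cuffdiff, Trimmomatic and CASAVA, and the labels' protocols name a stranded mRNA kit. Pull-down peaks were deposited without a header, and a last column, read as a p-value from its range, was not used further. The sources used here do not name a peak caller, and the input library was not analysed here.

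Rows averaging at least 1 FPKM were compared as log2(FPKM + 1) with limma 3.58.1 in R 4.3.3 (trended prior variance, two-sided, Benjamini-Hochberg over 11500 rows, called under 0.05). The fit was tested on simulated data drawn from its own variance model, which cannot show that the model holds for these libraries. FPKM holds no depth, so precision comes from the spread between libraries. The labels do not say that libraries came from separate cultures, so p-values may measure technical spread. An exact 0, found in 132 rows, can be a failed estimate. No member was at 0.

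Named were the 10 genes, the 4 genes of each list with the smallest p, Eif2ak3, Eif2ak4, the 5 closest profiles to Ddit3 and Trib3, and the rows of Mir31 and Rock1. Outside this rule, Ppp1r15b, mt-Nd2, Ero1l, Psat1, Phgdh, Hspa5 and Hsp90b1 are named, all chosen after their values were seen. The cell type markers, the genes overlapping a member and the targets holding TGATGNAA are named as well. Those targets were named because their matches were seen. Rock1 had a log2 fold change of 0.07 (limma, adjusted p = 0.38). The members and lists were chosen with earlier results of these data known. Gene positions and promoters are those of RefSeq (GRCm38.p6, the assembly of mm10), and 12686 of 13376 rows matched a RefSeq name. Python 3.11.15 with pandas 2.3.3 was used. Alternatives were other pseudocounts, filters, scalings and prior, a replicate block, each library left out, and other overlap rules.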

Additional observations from a re-analysis of the deposited data

How the results depend on the processing

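With 1 library left out, between 260 and 491 genes were called, against 1429 with all 4, and between 7 and 9 of the 10 genes were called higher, against 8, and 0 lower. In the same fits, 14 to 21 genes of the related lists were called higher, against 36, and 1 to 4 lower, against 7. Fewer samples entered these fits. The other alternatives called 1080 genes (constant prior variance) to 1935 (quantile normalization), with 8 of the 10 higher in each except the filter at a mean of 5 FPKM, which called 7 and left Atf3 untested. Over all alternatives, Atf4 lost its call in 2 fits and Cebpb gained one in 1. The fold change of Eif2ak4 lay between -0.080 and 0.087 with 1 library left out, below 0 without lnc-31 siRNA 2 or scrambled siRNA 1, never past the test. No scaling moved the median of all rows by more than 0.1. With the replicate number as a block, 1613 genes were called, 8 of the 10 genes higher and 0 lower. In that fit 36 genes of the related lists were higher and 8 lower, with 9 of the IRE1 and ATF6 list higher, and the calls of Cebpd (adjusted p = 0.057), Atf6 (0.053) and Jund (0.061) were lost. Deviations of same-numbered libraries correlated at -0.094 across 11500 rows. With 2 libraries per group, the sign of this value depends on how they were numbered. It therefore cannot show whether same-numbered libraries share a culture or a batch. Depth is unknown, and 2 libraries per group limit what could be called.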
